A study of Mus musculus with 8 samples.

Results

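The genes described are 37 that mark or run the cell division cycle, taken as a given list: 12 that act in DNA replication or at entry into S phase, 16 that act in mitosis, 6 G1 cyclins and cyclin-dependent kinases, and the 3 Cip/Kip inhibitors. They were found by symbol among 38924 genes counted in each of 8 libraries of ribosome-bound messenger RNA from embryonic mouse brain. BacTRAP mice carry a tagged ribosomal protein in the cells that use one driver gene, and pulling on the tag enriches what those cells translate. The design text names 2 drivers, Slc6a3 (the dopamine transporter) and Slc6a4 (the serotonin transporter), while the description of every library, serotonin included, names the Slc6a3 line JD1640. By their titles, datL (n = 2) and datM (n = 2) are midbrain neurons, and Lateral (n = 1) and Medial (n = 1) are midbrain dopamine neurons. The other 2 libraries are hindbrain serotonin neurons. All 6 midbrain libraries are called dopamine libraries here, although the titles of datL and datM do not name dopamine. The labels leave the letters L and M unexplained. Dissection was on embryonic day 15, and tissue called day 18 was taken then too and cultured for 3 days; the same text stands with all 8 libraries, and only the file headers of Lateral and Medial carry the mark E18. No mutation or drug treatment is named for any group. Strain, sex and the number of embryos behind a library are not given in the sources used here, so the spread between libraries of a group may be technical.

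A cell about to divide first copies its DNA in S phase and then separates the copies in mitosis. In G1, D-type cyclins with Cdk4 or Cdk6 lead to the release of E2F factors, which switch on replication genes; later, genes of mitosis are switched on through promoter elements called CHR and the CCAAT box, bound by the MuvB complex and by NF-Y. Neurons have left this cycle for good, whereas radial glia, the progenitors that line the ventricle of the embryonic brain, still divide, and the Cip/Kip inhibitors help cells to leave the cycle and stay out of it.

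The replication and mitosis members differed in the letters of their promoters. RefSeq windows of 300 bases (GRCm38.p6), from 250 before to 50 after a gene's start, were at hand for 30 of the 37 members (33 windows) and for 27025 genes in all. An E2F match (TTTCCCGC, TTTGGCGC, TTTCGCGC, TTTGCCGC, TTTGGCGG or TTCCCGCC on either strand) was found in 5 of 10 replication members, Mcm3, Mcm5, Mcm6, Mcm7 and Rrm1, and in 1 of 14 mitosis members, Cdk1. Over all genes 4.97% held one. These 4 sites show the E2F match in capitals, each read 5′ to 3′ along the gene's own strand, with its first base 47 bases before the start in Mcm6, 153 in Mcm5, 165 in Mcm7 and 67 in Rrm1.
Mcm6 (chr1:128359734-128359763, minus strand): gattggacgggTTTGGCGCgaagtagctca
Mcm5 (chr8:75109345-75109374, plus strand): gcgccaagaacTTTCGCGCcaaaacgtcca
Mcm7 (chr5:138172030-138172059, minus strand): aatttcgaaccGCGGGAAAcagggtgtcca
Rrm1 (chr7:102441617-102441646, plus strand): aggagaactcgTTCCCGCCaggtccgcttt

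The CHR letters (TTTGAA or TTCGAA, either strand) had the opposite distribution. They stood in 11 of 14 mitosis members and in 2 of 10 replication members, Mcm2 and Mcm7, beside 21.7% of all genes. A CCAAT box (CCAAT, either strand) was found in 13 of 14 mitosis members, 8 of 10 replication members and 41.1% of all genes. Both elements together were present in 11 of 14 mitosis members and 2 of 10 replication members, against 9.65% of all genes. The 5 sites below show the CHR letters in capitals, with the first base 18 bases before the start in Cdc20, 71 in Cdk1, 140 in Top2a and 98 in Mki67, and 3 bases after it in Cenpf.
Cdc20 (chr4:118437344-118437373, minus strand): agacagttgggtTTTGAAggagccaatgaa
Cdk1 (chr10:69352966-69352995, minus strand): ctgattggctccTTTGAAcgtctacgtgca
Top2a (chr11:99024312-99024341, minus strand): ctaattggtttaTTCGAAaaggcggtcttt
Mki67 (chr7:135716460-135716489, minus strand): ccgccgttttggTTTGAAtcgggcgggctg
Cenpf (chr1:189688067-189688096, minus strand): ggcggcgggcagTTTGAAtcgctcgtgctg

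In Cdk1 the CHR letters follow the reversed CCAAT box attgg within the printed stretch, and in Cdc20 they precede ccaat. Matches of different motifs can overlap, as in Mcm7, where an E2F match and a CCAAT box share bases, and each was counted by itself. Other replication and mitosis genes, outside the 37, showed the same split: of 20 further replication genes 12 held an E2F match and 4 the CHR letters, and of 22 further mitosis genes 1 held an E2F match and 17 the CHR letters. Such a match describes a window's letters and was not tested as a binding site.

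**Figure D1:**
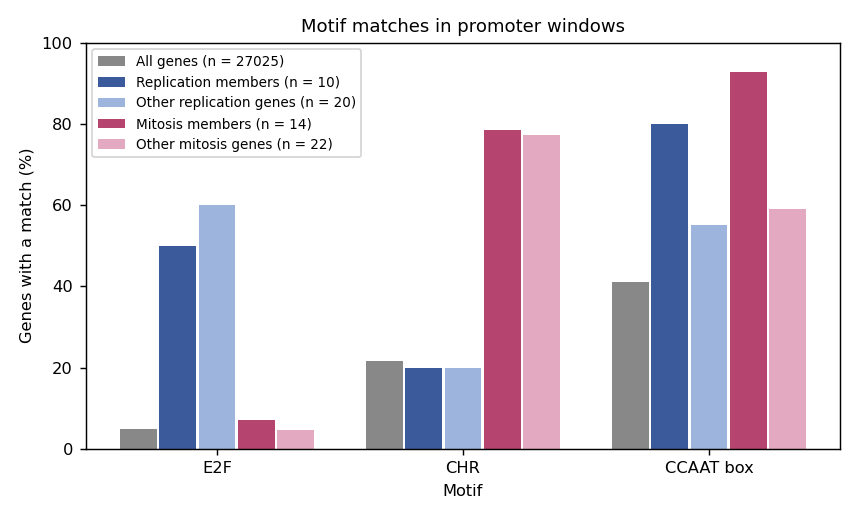
Share of genes (%) whose 300-base promoter window holds an E2F, CHR or CCAAT match, for all genes (grey), the replication members and other replication genes (blues), and the mitosis members and other mitosis genes (reds). E2F matches are most frequent in the replication lists (5 of 10 and 12 of 20 genes), and CHR matches in the mitosis lists (11 of 14 and 17 of 22).

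Library totals ran from 22417739 to 33216710 counts. By the file headers, datL and datM belong to an October run and the other 4 libraries to lane 8 of a different one. The October libraries stood apart: 15.1% to 23.1% of genes with a mean of at least 5 CPM (the count scaled to the library total) fell under 1 CPM in each of them, against 1.85% to 7.89% in lane 8. The median gap between the libraries of a pair was 1.69 on the log2(CPM + 0.5) scale for datL, 1.48 for datM, 0.35 for serotonin and 0.85 between Lateral and Medial. The marker Slc6a3 stood at 31.9 to 740 CPM in the dopamine libraries and 0.171 to 0.679 in serotonin, and Slc6a4 at 0 to 5.27 and 1075 to 1196. Summed, 6 dopamine markers did not separate the groups, at 329 and 830 CPM in datL, up to 1994 in other dopamine libraries, and 1168 and 986 in serotonin. Ddc made up 74.6% and 66.4% of the serotonin sums. The 4 serotonin markers summed to 11.8 to 422 CPM in dopamine, mostly Gata3, and to 4849 and 3996 in serotonin. Dopamine was therefore compared with serotonin over all libraries and again within lane 8, where cell type and the E18 mark cannot be told apart. In both comparisons brain region, midbrain or hindbrain by the titles, also changes with cell type and cannot be told apart from it.

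**Figure D2:**
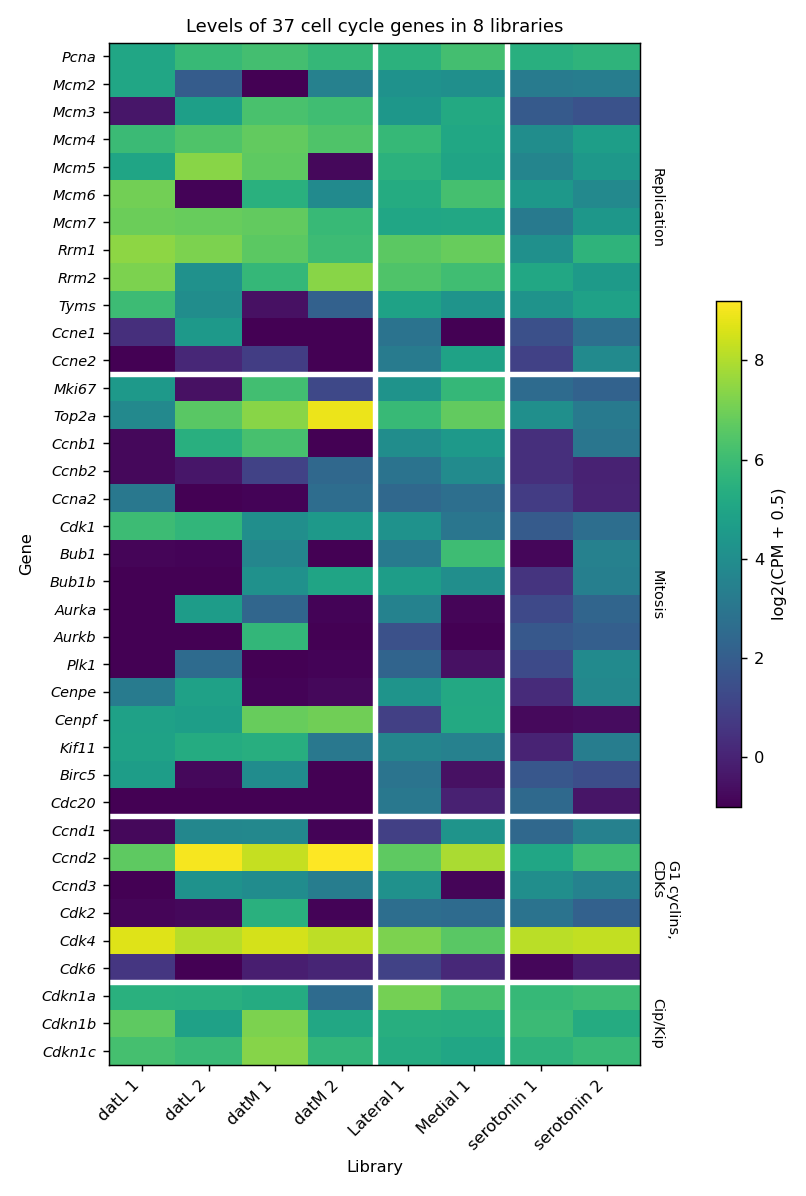
Levels of the 37 members (rows, by class) in the 8 libraries (columns), as log2(CPM + 0.5). Dark cells are genes at or near 0, which are scattered over the 4 October libraries and differ between the libraries of a pair, while Lateral has no member under 1 CPM.

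By class, the replication and mitosis genes stood higher in every dopamine library than in either serotonin library, and the other classes did not. The 12 replication genes summed to 793 and 654 CPM in datL, 661 and 522 in datM, 484 in Lateral, 524 in Medial, and 186 and 263 in serotonin. The mean was 606 ± 118 CPM in dopamine (SD, n = 6) and 225 ± 54.2 in serotonin (SD, n = 2), a ratio of 2.70, and 2.24 with Lateral and Medial alone. The 6 dopamine values were close together, and the lowest of them was above both serotonin values. In bulk samples, fewer cells of a type and less RNA per cell cannot be told apart.

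The 16 mitosis genes summed to 197 and 312 CPM in datL, 585 and 675 in datM, 219 in Lateral, 377 in Medial, and 45.2 and 95.1 in serotonin. Their mean was 394 ± 196 CPM in dopamine (SD, n = 6) and 70.2 ± 35.3 in serotonin (SD, n = 2), a ratio of 5.62, and 4.25 within lane 8. This class was spread more widely over the dopamine libraries than the replication class, from 197 to 675 CPM. A single gene, Top2a, made up 70.7% of the sum in datM replicate 2; without it that library had 198 CPM, the range over dopamine was 162 to 421 CPM, and the serotonin libraries stood at 28.9 and 86.7. The ratio of the mitosis to the replication sum was 0.248 and 0.477 in datL, 0.885 and 1.29 in datM, 0.453 in Lateral, 0.720 in Medial, and 0.243 and 0.361 in serotonin. Both datM libraries lay above both datL libraries, and Medial above Lateral. Further mitosis and replication genes, outside the 37, did not keep this order. Their mitosis and replication sums were 240 and 407 CPM in datL replicate 1, and 310 and 412 in datL replicate 2. They were 320 and 674 CPM in datM replicate 1, 842 and 691 in datM replicate 2, 229 and 407 in Lateral, and 325 and 612 in Medial.

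The 6 G1 cyclins and kinases summed to 514 and 840 CPM in datL, 754 and 880 in datM, 272 in Lateral, 359 in Medial, and 344 and 397 in serotonin. All 4 October libraries were above the 4 of lane 8, where the dopamine and serotonin values overlapped. The 3 inhibitors summed to 219 and 130 CPM in datL, 345 and 91.5 in datM, 212 in Lateral, 146 in Medial, and 166 and 160 in serotonin. The serotonin values lay inside the range of the dopamine values.

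**Figure D3:**
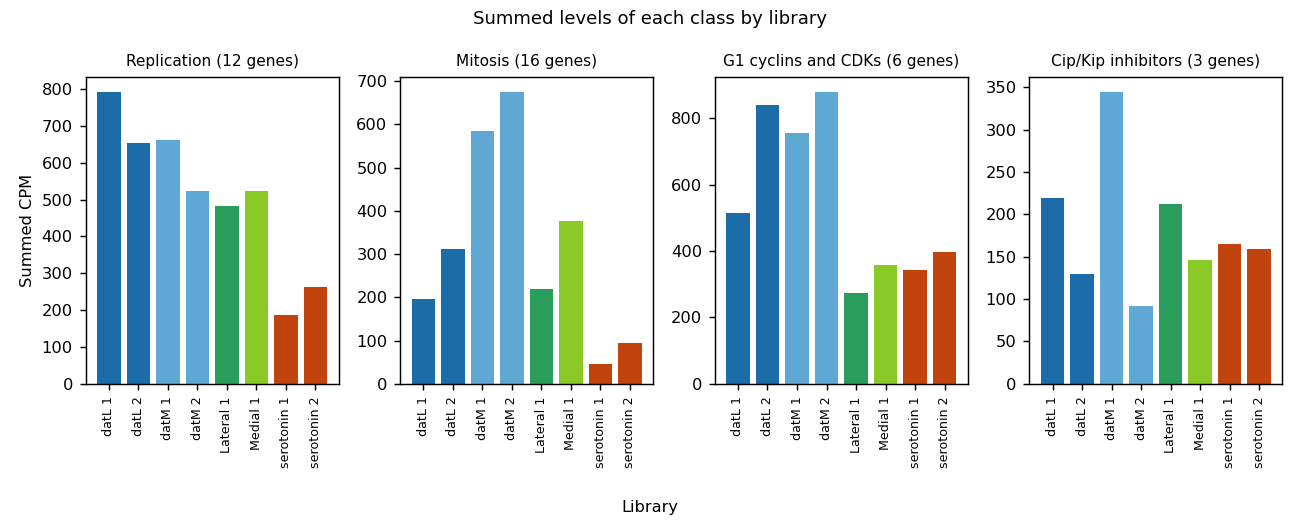
Summed CPM of the members of each class in each library (bars from 0; blue October dopamine, green lane 8 dopamine, red serotonin). Replication and mitosis sums are above both serotonin libraries in all 6 dopamine libraries, while the G1 and inhibitor sums overlap.

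Among the replication genes, the 2 subunits of ribonucleotide reductase, which makes the deoxynucleotides for DNA synthesis, were among the most abundant. Rrm1 (ENSMUSG00000030978.9, mm10 chromosome 7, 102441695 to 102469771) read 174 and 146 CPM in datL, 99.8 and 64.0 in datM, 97.5 in Lateral, 113 in Medial, and 17.1 and 49.3 in serotonin. All 6 dopamine libraries were above both serotonin libraries. Rrm2, the subunit made mainly in S phase, read 146 and 17.4 CPM in datL, 54.9 and 165 in datM, 83.1 in Lateral, 67.4 in Medial, and 34.6 and 22.9 in serotonin. Here datL replicate 2 was below both serotonin libraries, and the other 5 were above.

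Mcm2 to Mcm7 encode the subunits of the helicase that is loaded at replication origins, 1 of each in a ring. Mcm4 read 61.7 and 84.3 CPM in datL, 107 and 83.4 in datM, 56.2 in Lateral, 33.1 in Medial, and 15.7 and 25.5 in serotonin. For Mcm7 (ENSMUSG00000029730.10, mm10 chromosome 5, 138164583 to 138172422) the values were 121 and 112 CPM in datL, 106 and 58.8 in datM, 32.4 in Lateral, 34.6 in Medial, and 8.82 and 20.5 in serotonin. Neither gene overlapped between the cell types, and Mcm7 was also higher in every October library than in Lateral or Medial. Reads were counted without strand, and 7.25% of the Mcm7 exon bases are shared with the opposite-strand gene Ap4m1.

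The other 4 subunits each dropped out of 1 October library. Mcm3 read 0.264 and 26.5 CPM in datL, 77.0 and 66.7 in datM, 20.8 in Lateral, 35.9 in Medial, and 3.16 and 2.50 in serotonin. Mcm6 read 129 and 0.0381 CPM in datL, 44.1 and 14.2 in datM, 38.4 in Lateral, 72.8 in Medial, and 21.5 and 13.5 in serotonin. Mcm5 read 31.7 and 168 CPM in datL, 100 and 0.0832 in datM, 46.2 in Lateral, 30.4 in Medial, and 12.0 and 21.5 in serotonin. In each of these genes the low dopamine library was a different one, and outside it most dopamine values were above serotonin. Mcm2 read 32.2 and 3.43 CPM in datL, 0 and 10.8 in datM, 18.1 in Lateral, 16.6 in Medial, and 8.99 and 9.50 in serotonin. A count of 0 in datM replicate 1 allows up to 0.110 CPM, taking 3 counts as the limit and counting error only.

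Within the ring, levels per length (CPM per kb of exon) spanned 2.92-fold from lowest to highest subunit in Lateral, 5.08-fold in Medial, and 7.02-fold and 8.49-fold in serotonin. In the October libraries the span was 504-fold and 3724-fold in datL and 956-fold in datM replicate 2, and Mcm2 was at 0 in datM replicate 1. Exactly 1 of the 6 subunits was under 1 CPM in each October library and none in lane 8. Of all genes with a mean of at least 5 CPM, 15.1% to 23.1% were under 1 CPM in the October libraries, and 1.85% to 7.89% in lane 8. The sum of the 6 was steadier, at 376 and 394 CPM in datL, 434 and 234 in datM, 212 in Lateral, 223 in Medial, and 70.1 and 92.9 in serotonin.

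**Figure D4:**
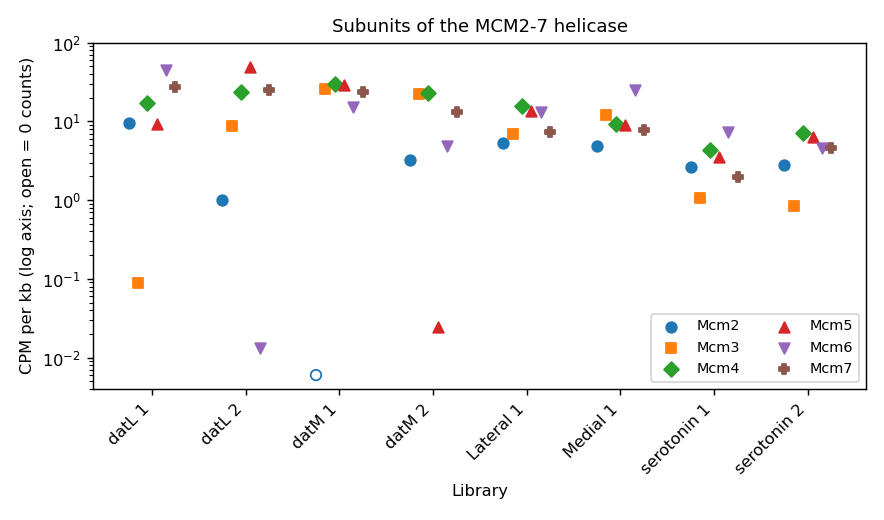
CPM per kb of Mcm2 to Mcm7 in each library (log axis; the open symbol is a count of 0). In lane 8 the 6 subunits lie within 10-fold of each other, and in each October library a different subunit lies far below the rest.

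The remaining genes of this class did not separate the cell types. Pcna, the sliding clamp of DNA polymerase, read 32.1 and 58.7 CPM in datL, 71.3 and 54.9 in datM, 46.6 in Lateral, 71.6 in Medial, and 42.7 and 49.7 in serotonin. Tyms, thymidylate synthase, read 63.3 and 15.6 CPM in datL, 0.183 and 4.04 in datM, 28.6 in Lateral, 19.0 in Medial, and 18.2 and 27.8 in serotonin. The E-type cyclins, which drive entry into S phase, were low and patchy. Ccne1 exceeded 1 CPM in 2 dopamine libraries, at 21.7 CPM in datL replicate 2 and 6.86 in Lateral, and stood at 2.34 and 6.10 in serotonin. Ccne2 read 0 to 1.28 CPM over the October libraries, 9.06 in Lateral, 29.0 in Medial, and 1.46 and 14.3 in serotonin; 17.4% of its exon bases are shared with Ints8 on the opposite strand.

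Among the mitosis genes, Cenpf differed most between the cell types. Cenpf (ENSMUSG00000026605.8, mm10 chromosome 1, 189640599 to 189688086), a large protein of the kinetochore, read 27.8 and 25.5 CPM in datL, 114 and 125 in datM, 1.38 in Lateral, 36.1 in Medial, and 0.102 and 0.137 in serotonin. The serotonin values were near the 0.102 CPM that 3 counts make in those libraries, and even the lowest dopamine value, in Lateral, was higher. Top2a (ENSMUSG00000020914.11, mm10 chromosome 11, 98992943 to 99024189), the topoisomerase that untangles sister chromosomes, read 13.5 and 94.95 CPM in datL, 165 and 477 in datM, 57.6 in Lateral, 108 in Medial, and 16.3 and 8.44 in serotonin. Only datL replicate 1 lay within the serotonin range.

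Cdk1, the kinase that drives mitosis, read 62.8 and 51.9 CPM in datL, 15.8 and 22.3 in datM, 17.8 in Lateral, 7.54 in Medial, and 3.29 and 5.86 in serotonin, with no overlap between the cell types. Its partners were less regular. Cyclin B1, Ccnb1, read 0.0881 and 42.5 CPM in datL, 75.6 and 0 in datM, 15.5 in Lateral, 22.6 in Medial, and 0.780 and 7.51 in serotonin. Ccnb2 reached 0.0881 to 4.91 CPM in the October libraries, 6.83 in Lateral, 14.7 in Medial, and 0.814 and 0.480 in serotonin; a processed copy, Ccnb2-ps, took up to 443 counts in 1 library, so Ccnb2 is uncertain. Cyclin A2, Ccna2, stayed at or below 7.89 CPM in every library and shares 14.6% of its exon bases with the opposite-strand gene Exosc9.

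Mki67, whose protein Ki-67 coats mitotic chromosomes and is the common stain for dividing cells, read 22.2 and 0.191 CPM in datL, 69.4 and 1.83 in datM, 18.2 in Lateral, 55.5 in Medial, and 5.46 and 4.08 in serotonin. The second library of each October pair was below serotonin and the other 4 dopamine libraries were above. Kif11, a motor that pushes spindle poles apart, read 28.5 and 38.3 CPM in datL, 41.7 and 7.95 in datM, 12.0 in Lateral, 10.6 in Medial, and 0.509 and 9.64 in serotonin. Only datM replicate 2 overlapped serotonin.

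Most of the remaining mitosis genes exceeded 1 CPM in 1 or more October libraries and fell below it in others. Bub1b, a checkpoint protein, read 0 and 0 CPM in datL, 17.5 and 30.2 in datM, 24.9 in Lateral, 16.1 in Medial, and 0.950 and 10.2 in serotonin. Its partner Bub1 exceeded 1 CPM in 1 October library, at 12.2 CPM in datM replicate 1, and read 8.43 in Lateral, 64.2 in Medial, and 0.0679 and 10.6 in serotonin. Cenpe, a kinetochore motor, read 8.94 and 28.2 CPM in datL, 0.0367 and 0.0832 in datM, 18.9 in Lateral, 35.0 in Medial, and 0.679 and 12.9 in serotonin. Bub1b and Cenpe thus had opposite orders in datL and datM.

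Aurkb, the kinase of the chromosomal passenger complex, read 53.5 CPM in datM replicate 1, 0 in the other October libraries, 2.41 in Lateral, 0 in Medial, and 3.02 and 3.81 in serotonin. Birc5, survivin of the same complex, read 24.9 and 0.0763 CPM in datL, 14.9 and 0 in datM, 7.04 in Lateral, 0.178 in Medial, and 2.95 and 2.23 in serotonin. The highest library therefore differed between these partners. Aurka, the kinase of spindle poles, exceeded 1 CPM in 3 dopamine libraries, at 24.5 in datL replicate 2, 4.66 in datM replicate 1 and 11.0 in Lateral, and read 1.90 and 4.46 in serotonin. Plk1, polo-like kinase, was no higher than 5.42 CPM in any dopamine library and read 1.97 and 14.1 in serotonin. Cdc20, which activates the anaphase-promoting complex, had 0 counts in all 4 October libraries and read 7.92 CPM in Lateral, 0.446 in Medial, and 5.16 and 0.240 in serotonin.

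Of the G1 genes, Ccnd2 and Cdk4 carried nearly the whole sum. Ccnd2 (ENSMUSG00000000184.9, mm10 chromosome 6, 127125779 to 127151048), cyclin D2, read 102 and 538 CPM in datL, 312 and 582 in datM, 100 in Lateral, 237 in Medial, and 32.7 and 64.7 in serotonin. All 6 dopamine libraries were above both serotonin libraries. Cdk4 (ENSMUSG00000006728.6, mm10 chromosome 10, 127063534 to 127067920), the kinase that D cyclins bind, read 412 and 271 CPM in datL, 370 and 288 in datM, 146 in Lateral, 97.1 in Medial, and 283 and 306 in serotonin. The serotonin libraries were at the level of the October dopamine libraries, and Lateral and Medial were below all others. Cdk4 shares 18.6% of its exon bases with Tspan31 on the opposite strand, which read 20.6 to 98.2 CPM in the October libraries, 41.4 in Lateral, 5.58 in Medial, and 64.7 and 81.3 in serotonin; its part in the Cdk4 counts was not tested.

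Per kb of exon, Cdk4 was the most abundant member (mean over 8 libraries 83.6 CPM per kb), followed by Ccnd2 (43.2), and Cdk6, the alternative partner of D cyclins, was the least (0.153). Cdk6 did not exceed 1.54 CPM in any library. The other D cyclins were low, with Ccnd1 at 0.0416 to 19.2 CPM over the dopamine libraries and 4.99 and 10.5 in serotonin, and Ccnd3 under 1 CPM in 2 libraries, at no more than 17.2 in lane 8, and at 16.2 and 10.9 in serotonin. Ccnd1 shares 21.3% of its exon bases with the opposite-strand gene LTO1. Cdk2, the partner of cyclin E, read 43.5 CPM in datM replicate 1, 0.0416 to 0.0763 in the other October libraries, 5.99 in Lateral, 5.35 in Medial, and 6.92 and 3.94 in serotonin.

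All 3 inhibitors were detected in all 8 libraries. Cdkn1a, p21, read 44.5 and 42.8 CPM in datL, 37.8 and 5.49 in datM, 132 in Lateral, 74.0 in Medial, and 55.8 and 63.8 in serotonin. Lateral and Medial were above both serotonin libraries, and all October libraries were below. Cdkn1b, p27, read 102 and 27.7 CPM in datL, 145 and 34.2 in datM, 41.4 in Lateral, 40.2 in Medial, and 61.5 and 37.9 in serotonin. Cdkn1c, p57, read 72.2 and 59.6 CPM in datL, 162 and 51.8 in datM, 38.4 in Lateral, 32.1 in Medial, and 48.3 and 58.0 in serotonin. For p27 and p57 the first datM library was the highest of all 8.

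Tested over all libraries, 33 of the 37 members had a higher fitted level in dopamine than in serotonin, but none passed correction over 13806 genes. The median log2 fold change was 1.63 over the members and 0.26 over all genes tested, of which 8137 were positive. By class the medians were 1.71 for replication (11 of 12 positive), 2.06 for mitosis (14 of 16), 0.50 for G1 genes (5 of 6) and 0.55 for inhibitors (3 of 3). With edgeR's quasi-likelihood test and Benjamini-Hochberg adjustment, 0% of genes were past an adjusted p of 0.05. At an unadjusted p under 0.05, 7 members were higher (18.9%, background 2.80%): Cenpf, Ccnd2, Top2a, Rrm1, Mcm7, Mcm4 and Mcm3. None was lower (background 1.90%). The count of 33 positive members depended on the model. It was 22 with limma-voom, 22 in a fit of 5 groups and 26 with a replicate block.

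The edgeR log2 fold change of Cenpf was 8.94 (SE 2.04, adjusted p = 0.328). For Ccnd2 it was 2.83 (SE 0.84, adjusted p = 0.487), and for Top2a 3.76 (SE 1.22, adjusted p = 0.641). DESeq2 placed these 3 members past its threshold (8.11% of members, background 0.963%), with adjusted p of 4.19e-09 for Cenpf, 0.0177 for Ccnd2 and 0.0147 for Top2a, and limma-voom placed none. In 6 members the values did not overlap between the cell types, with every dopamine library above both serotonin libraries: Ccnd2, Cdk1, Cenpf, Mcm4, Mcm7 and Rrm1 (16.2%, background 3.06%). No member lay below serotonin in every dopamine library (background 8.59%). With limma-voom the members' median was 0.25, beside -0.64 over all genes, so its size depended on the model.

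Within lane 8, 28 of 37 members were higher in Lateral and Medial than in serotonin by the fit, with a median log2 fold change of 1.11 beside 0.03 over 13400 genes. By class the medians were 1.12 for replication, 1.86 for mitosis, 0.13 for G1 genes and -0.37 for inhibitors. With edgeR, 0.0224% of genes (3 genes) and no member passed at an adjusted p of 0.05. At an unadjusted p under 0.05, 9 members were higher (24.3%, background 7.34%): Top2a, Mcm3, Cenpf, Mki67, Ccnd2, Rrm2, Rrm1, Mcm6 and Ccnb2. Cdk4 alone was lower (2.70%, background 6.46%).

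In this edgeR fit Top2a stood at a log2 fold change of 2.64 (SE 0.58, adjusted p = 0.273), and Mcm3 at 3.22 (SE 0.89, adjusted p = 0.286). Mki67, which overlapped when all libraries were used, stood at 2.83 (SE 0.85, adjusted p = 0.286). For Cdk4 the value was -1.35 (SE 0.34, adjusted p = 0.283), a lower level in both Lateral and Medial. With DESeq2, 7 members passed (18.9%, background 5.87%): Ccnb2, Ccnd2, Cdk4, Cenpf, Mcm3, Mki67 and Top2a. With the Lateral library left out, the members' median log2 fold change by edgeR was 0.93, beside -0.25 over all genes. In that fit Medial stood alone, the spread came from the serotonin pair, and Medial was assumed to vary like it.

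Non-overlap was frequent in so small a comparison. Both dopamine libraries of lane 8 were above both serotonin libraries in 21 members (56.8%, background 25.0%), which included Mcm2 to Mcm7, Rrm1 and Rrm2. In 3 members, Aurkb, Cdk4 and Cdkn1c, both were below (8.11%, background 24.6%).

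**Figure D5:**
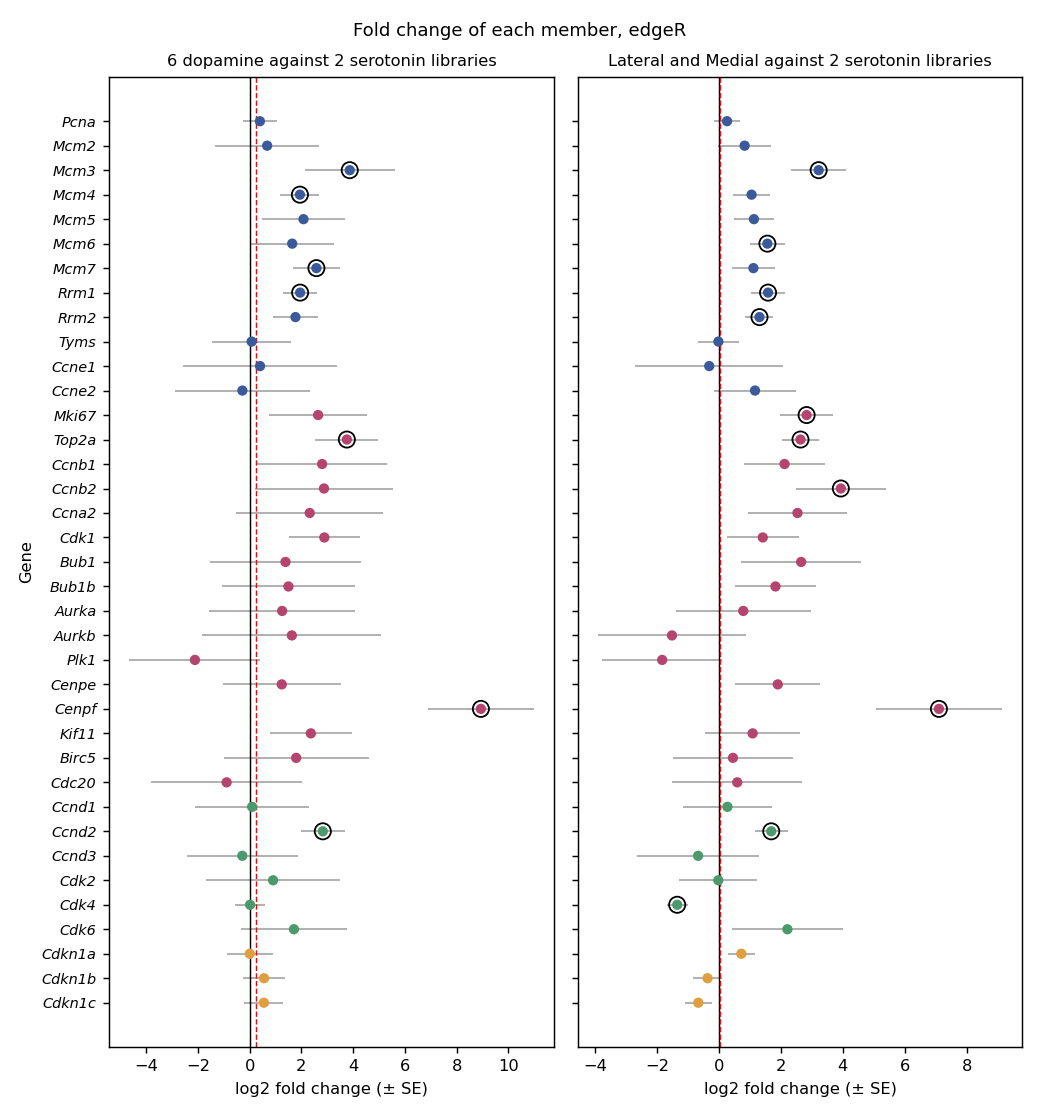
Log2 fold change of each member with its standard error, for all dopamine libraries (left) and for Lateral and Medial (right) against serotonin; both use the same 2 serotonin libraries. Points are coloured by class, black rings mark an unadjusted p under 0.05, and the dashed red line is the median of all genes tested; most replication and mitosis genes lie to its right, and G1 genes and inhibitors lie around it.

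Lateral and Medial were also set against the 4 October dopamine libraries, a comparison in which the run and the E18 mark change together and cannot be told apart. The members' median log2 fold change was -0.49, beside -0.11 over 12818 genes, and 14 of 37 were positive. With limma-voom both medians turned, to 0.48 over the members (24 of 37 positive) and 0.69 over all genes, so no direction is read from them. No member or gene passed with edgeR (background 0%) and no member with DESeq2 (background 0.312%). At an unadjusted p under 0.05, Cdc20 was higher (2.70%, background 3.81%), and Cdk4 and Mcm7 were lower (5.41%, background 0.663%). Cdc20, at 0 in all October libraries, was at least 140-fold higher in the mean of Lateral and Medial, against a floor of 3 counts over the October group; Medial alone read 0.446 CPM. By edgeR, the log2 fold change was -1.63 for Cdk4 (SE 0.52, adjusted p = 0.469) and -1.76 for Mcm7 (SE 0.76, adjusted p = 1.00).

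Between datL and datM no member passed with edgeR (background 0% over 15177 genes). At an unadjusted p under 0.05, Ccne1 and Cenpe were higher in datL (5.41%, background 3.40%) and Aurkb, Bub1b and Top2a were lower (8.11%, background 3.52%). Bub1b, at 0 in both datL libraries, was at least 388-fold higher in datM, against a floor of 3 counts over the group. Such bounds cover counting error only, and not genes dropping out of single October libraries. Ccne1, at 0 in both datM libraries, was at least 192-fold higher in datL, a mean that rests on datL replicate 2, since replicate 1 read 0.793 CPM. For Aurkb the bound of 436-fold rests on datM replicate 1 alone, and without it Aurkb was at 0 in both groups. By edgeR, Cenpe differed by 8.25 on the log2 scale (SE 2.73, adjusted p = 0.597) and Top2a by -2.49 (SE 1.06, adjusted p = 0.597). DESeq2 called 6 members (16.2%, background 10.6%): Aurkb, Bub1b, Ccne1, Cdk2, Cenpe and Tyms; limma-voom called Bub1b.

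Gaps between the libraries of a pair were also large. Of 27 members with a pair mean of at least 5 CPM, 11 differed over 8-fold between the datL libraries (40.7%, beside 31.4% of all genes) and 9 of 27 between the datM libraries (33.3%, beside 30.3%). Between the serotonin libraries 3 of 24 did (12.5%, beside 0.686%), and the members' median gap there was 0.78 on the log2 scale, beside 0.35 for all genes. Under 1 CPM lay 14 and 12 members in datL, 8 and 14 in datM, none in Lateral, 8 in Medial, and 8 and 5 in serotonin. Among the 31 members with a mean of at least 5 CPM, the shares were 32.3% and 25.8% in datL (background 23.1% and 15.1%). They were 9.68% and 32.3% in datM (background 19.0% and 17.3%), and 19.4% and 3.23% in serotonin (background 2.89% and 3.46%). In Lateral the share was 0% (background 1.85%), and in Medial 12.9% (background 7.89%).

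Lateral and Medial, 1 library each, were compared by their ratio, and no test was made. More than 2-fold higher in Lateral, with at least 20 counts in the 2 libraries together, were 9 members (24.3%, background 30.1%): Aurka, Aurkb, Birc5, Ccnd3, Ccne1, Cdc20, Cdk1, Cdk6 and Plk1. In Medial 7 members were higher (18.9%, background 23.2%): Bub1, Ccnb2, Ccnd1, Ccnd2, Ccne2, Cenpf and Mki67. Both shares were below those of all genes. Cenpf stood at 1.38 CPM in Lateral (95% exact Poisson interval 1.01 to 1.85, counting error only) and 36.1 in Medial (33.7 to 38.7), a ratio of 26.1. Ccnd3 was at 17.2 CPM in Lateral (15.8 to 18.7) and at 0.0446 in Medial, a single count (0.00113 to 0.249). Mcm2 and Mcm7 were within 1.09-fold of each other in the 2 libraries.

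Further replication and mitosis genes, outside the 37, had positive medians that were below those of the members. Summed, the 26 other replication genes stood at 407 and 412 CPM in datL, 674 and 691 in datM, 407 in Lateral and 612 in Medial. Serotonin had 421 and 378, so only 3 of 6 dopamine libraries were above both, with a ratio of means of 1.34. The 26 other mitosis genes summed to 229 to 842 CPM in dopamine and 106 and 136 in serotonin, with all 6 dopamine libraries above both. Over all libraries, 19 of 25 other replication genes tested had positive fold changes in dopamine against serotonin, with a median of 1.24, and none had an unadjusted p under 0.05. Of 26 other mitosis genes 24 were positive, with a median of 2.04, and 1, Kif23, a motor of cytokinesis, was higher with such a p (background 2.80%). Within lane 8 the medians were 0.49 for replication (25 tested) and 0.82 for mitosis (24 tested). There 1 replication gene and 1 mitosis gene, Anln, were higher with such a p (background 7.34%).

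Regulators of the cycle (20 tested) had a median of 0.22 over all libraries, close to that of all genes. Rbl1, the pocket protein p107, was the only one with an unadjusted p under 0.05; it read 0 to 0.229 CPM in dopamine and 1.02 and 2.23 in serotonin. The inhibitor genes Cdkn2a and Cdkn2b had 0 counts in every library. Kinases and cyclins of postmitotic neurons, such as Cdk5 and its activator Cdk5r1, served as a contrast: none of 9 had such a p, the median was 0.25, and their sum was 596 to 1226 CPM in dopamine and 955 and 724 in serotonin.

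Markers of radial glia, oligodendrocyte precursors and red cells also summed higher in all 6 dopamine libraries than in serotonin. Sums of neuroblast, endothelial, mesenchymal and microglia markers overlapped between the cell types. The part of any of these cells in the results was not tested. The 8 radial glia markers (Nes, Sox2, Vim, Hes1, Hes5, Pax6, Fabp7 and Slc1a3) all had positive log2 fold changes, with a median of 2.29 over all libraries and 1.32 in lane 8. They summed to 1463 to 4140 CPM in dopamine and to 856 and 1074 in serotonin, and none was at 0 in any library. Fabp7 alone made up 49.3% to 84.0% of the radial glia sum in each library. The 5 markers of oligodendrocyte precursors, which also divide, summed to 36.7 to 326 CPM in dopamine and to 5.87 and 20.6 in serotonin, with a median log2 fold change of 3.20 over all libraries and 3.80 in lane 8. Of these, Pdgfra was detected in every library and Sox10 was at 0 in 3. The 6 red cell markers summed to 102 to 718 CPM in dopamine and to 30.4 and 50.4 in serotonin, with medians of 3.44 and 2.21 likewise. All 6 had positive fold changes over all libraries, while in lane 8 5 were positive and 1 was negative. Neuroblast markers (6 genes) summed to 494 to 1495 CPM in dopamine and to 499 and 530 in serotonin. Of the dopamine libraries 5 were above both serotonin libraries, and 1, Medial, was below both. A single gene, Dcx, made up 84.9% to 98.4% of this sum in each library. Endothelial markers (5 genes) summed to 0.550 to 58.3 CPM in dopamine and to 7.57 and 9.26 in serotonin, and Cldn5 did not exceed 2.05 CPM. Mesenchymal markers (6 genes) summed to 0.250 to 82.8 CPM in dopamine and to 0.780 and 52.0 in serotonin, with a median log2 fold change of -1.23 over 4 tested. Of 4 microglia markers, Csf1r was at 0 in all libraries and C1qa in 7 of 8. The 4 summed to 0 to 13.5 CPM in dopamine and to 1.90 and 0.0343 in serotonin; the highest value, in datM replicate 1, was Aif1. Neuron markers summed to 11985 to 18258 CPM in dopamine and 14193 and 14536 in serotonin, with a median log2 fold change of -0.07.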

How the data were processed

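Each of the 8 libraries had 1 deposited table of raw read counts per gene. The submitters' processing notes name STAR and mm10. Per the file headers, featureCounts 1.4.3-p1 made the counts against GENCODE M2, ignoring strand. cDNA was amplified by PCR without molecular identifiers, so intervals and floors cover counting error only.

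Of 38924 gene identifiers, 37607 were matched to a symbol. CPM is the count scaled to the library total. Genes were tested with edgeR 4.0.16 in R 4.3.3 (quasi-likelihood test, two-sided, TMM factors, default expression filter, Benjamini-Hochberg adjustment over all genes tested, threshold 0.05). All 37 members passed the filter in each comparison. Standard errors are the absolute log2 fold change over the square root of F. The 6 dopamine libraries were compared with the 2 of serotonin, also within lane 8; datL with datM in a fit of 5 groups; Lateral and Medial with datL and datM. Lateral was compared with Medial by exact Poisson intervals. Alternatives were DESeq2 1.42.0, limma-voom (limma 3.58.1), RLE factors, no filter, other fits and omission of each library. The edgeR step was tested on simulated data.

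The members and the other lists were chosen with earlier results of these data known. Any member could be named, and from each other list up to 4 genes by smallest p; other genes were chosen after their values were seen. The values of 1 gene of the other lists are not reported here.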

Additional observations from a re-analysis of the deposited data

Results flagged for a closer look

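Of 41 values tested, 37 members and 4 class sums, 8 had 1 dopamine library far from the other 5, with a gap to the nearest over 0.625 of the range. For draws from a single normal distribution this cut-off marks about 1 value in 20. CPM from different groups and runs need not follow one, so no excess is read from the 8. In datM replicate 1 these were Aurkb at 53.5 CPM (next 2.41), Cdk2 at 43.5 CPM (next 5.99) and Cdkn1c at 162 CPM (next 72.2). In Medial they were Bub1 at 64.2 CPM (next 12.2) and Ccne2 at 29.0 CPM (next 9.06). Top2a stood at 477 CPM in datM replicate 2 (next 165), Ccne1 at 21.7 CPM in datL replicate 2 (next 6.86) and Cdc20 at 7.92 CPM in Lateral (next 0.446). The cause was not tested.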

How the results depend on the processing

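Among members at an unadjusted p under 0.05, no fold change turned to the other sign under any alternative (Aurkb between datL and datM was 0 without datM replicate 1), while the members' median for Lateral and Medial against October turned with limma-voom, from -0.49 to 0.48. Of counts and sums, 132 of 168 alternative values stayed within 1.5 times or 1 SD of the reported one. DESeq2 called 3 members and 133 genes in dopamine against serotonin, 7 and 787 within lane 8, 6 and 1609 between datL and datM, and 40 genes between Lateral and Medial and the October libraries; limma-voom called 14 genes, 1 gene, and 243 genes with 1 member in the first 3. A fit of 5 groups called 2 genes in the first comparison, with a members' median of 0.46 beside -0.33 over all genes, and dropping the expression filter 7 genes in lane 8. Members at an unadjusted p under 0.05 numbered 3 with limma-voom in dopamine against serotonin. Between datL and datM they numbered 11 with DESeq2 and 3 with only the datL and datM libraries. The share of all genes at that p is not given for the alternatives, the replicate block included. No result about the members is therefore read from such counts. Omitting 1 library at a time gave 0 to 1 genes called and 2 to 7 members at an unadjusted p under 0.05 in dopamine against serotonin; 13 to 2453 genes, 0 to 7 members called and 3 to 14 at that p in lane 8; 0 to 6 genes and 2 to 6 members at that p between datL and datM; and 1 to 4 members at that p for Lateral and Medial against October. Members above serotonin without overlap were 21 in lane 8 alone (56.8%, background 25.0%), and members below were 3 there (8.11%, background 24.6%). With TMM scaling the inhibitors summed to 152 CPM in serotonin. The causes were not tested. The alternatives for counts at an unadjusted p and for overlap, and the mitosis sum without Top2a, were added after seeing the data. Same-numbered libraries shared only a number: their deviations correlated at 0.12 between datL and datM, 0.04 and 0.0032 with serotonin, over 10431 genes. A replicate block gave 0 members called and 6 at an unadjusted p under 0.05 in dopamine against serotonin, with a members' median of 0.49 beside -0.07 over all genes, and 0 and 3 between datL and datM. Depth limits what can be detected: 3 counts make 0.0903 to 0.134 CPM.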
